A study of Homo sapiens and Mus musculus with 13 samples.

Results

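Chemokines are small secreted proteins that attract leukocytes, and 9 human chemokine genes were followed in MDA-MB-231, a triple-negative breast cancer cell line. They were chosen by symbol from the 24523 gene symbols of the RNA-Seq table: CXCL1, CXCL2, CXCL3, CXCL5, CXCL6 and CXCL8 of the CXC family and CCL2, CCL5 and CCL20 of the CC family. The choice was made with earlier results of these data known, so their counts beside the shares of all genes are no independent test. All 9 had an entry of their own, and 6 had a mean expression of at least 0.5 FPKM over the 7 libraries, the level from which genes were tested. FPKM counts fragments per kilobase of transcript, scaled to the number of mapped fragments, so levels of different genes can be compared per length. CXCL5, CXCL6 and CCL20 were below that level.

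The study followed TRIM11, a ubiquitin ligase, and KDM5C, a histone demethylase. Cells were infected with lentivirus that carries Cas9 and a guide RNA (sgRNA), selected with puromycin, and examined by western blot. The 7 lines, with 1 library each, were Control with a GFP sgRNA, TRIM11-KD1 and TRIM11-KD2, KDM5C-KD1 and KDM5C-KD2, and the double knockdowns DKD1 and DKD2. DKD1 carried TRIM11 sgRNA1 and DKD2 carried TRIM11 sgRNA2, each with KDM5C sgRNA2, the guide of KDM5C-KD2. All lines, Control included, thus carry Cas9 and the selection. Whether a line is 1 clone is not given in the sources used here, nor is it stated that libraries come from separate cultures, so p-values measure the spread between these libraries. The second set of samples was mammary tumors of mice aged 3 months, 3 Trim11+/+ and 3 Trim11+/-, the latter with exons 2 to 6 of 1 Trim11 copy deleted. Both genotypes carried MMTV-PyVT, in which a viral promoter active in mammary epithelium drives an oncogene, and came from crosses of a C57BL/6N line with the FVB/N transgenic strain.

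CXCL1, CXCL2, CXCL3, CXCL5, CXCL6 and CXCL8 (interleukin-8) are known to attract neutrophils through the receptors CXCR1 and CXCR2. CCL2 attracts monocytes through CCR2, CCL5 attracts T cells and monocytes, and CCL20 attracts lymphocytes and dendritic cells through CCR6. Their genes are textbook targets of NF-kappaB, a transcription factor activated by interleukin-1 and TNF, and several are also activated through AP-1 and C/EBP factors. Breast tumor cells secrete several of them.

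The 6 CXC genes lie in 1 cluster on chromosome 4 of hg19, from 74606236 to 74964913, a stretch of 358.7 kb. CXCL8 (74606236 to 74609433), CXCL6 (74702357 to 74714781) and CXCL1 (74735110 to 74737025) are on the plus strand. CXCL5 (74861359 to 74864394), CXCL3 (74902306 to 74904524) and CXCL2 (74962757 to 74964913) are on the minus strand. CCL2 (32582293 to 32584227, plus strand) and CCL5 (34198495 to 34207797, minus strand) are on chromosome 17, and CCL20 (228670455 to 228682280, plus strand) is on chromosome 2.

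The 250 bases before the start site were read for 7 of the 9 genes from RefSeq (GRCh38.p14), and each was found once, base for base, in hg19. CCL2 and CCL5 had no entry. The gene positions above are from the GENCODE annotation, whose gene ends differ from the RefSeq start sites for some genes. The stretches of CXCL2, CXCL3, CXCL6, CXCL8 and CCL20 thus overlap the gene positions given above. The promoters of CXCL1, CXCL2, CXCL3 and CXCL8 are shown because these genes had similar patterns across the lines, and that of CXCL5 because this gene was near 0 in every library. They lie at chr4:74734860-74735109 (CXCL1, plus strand), chr4:74964913-74965162 (CXCL2, minus strand), chr4:74904407-74904656 (CXCL3, minus strand), chr4:74606036-74606285 (CXCL8, plus strand) and chr4:74864395-74864644 (CXCL5, minus strand). Capitals mark the longest run of bases that the genes have in common, GGGAATTTCCC in CXCL1, CXCL2, CXCL3, CXCL5 and CXCL6, of which CXCL8 holds GGAATTTCC.
CXCL1: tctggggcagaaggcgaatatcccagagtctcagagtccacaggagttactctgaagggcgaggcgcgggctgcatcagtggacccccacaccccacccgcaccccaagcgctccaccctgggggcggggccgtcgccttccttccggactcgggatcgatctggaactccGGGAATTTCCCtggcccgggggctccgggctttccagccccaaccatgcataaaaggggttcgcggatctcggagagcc
CXCL2: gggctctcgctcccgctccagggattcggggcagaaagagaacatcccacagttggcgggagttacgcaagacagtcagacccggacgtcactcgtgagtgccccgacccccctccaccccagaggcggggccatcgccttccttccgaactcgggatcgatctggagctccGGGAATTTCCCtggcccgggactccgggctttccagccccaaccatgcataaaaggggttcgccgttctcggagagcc
CXCL3: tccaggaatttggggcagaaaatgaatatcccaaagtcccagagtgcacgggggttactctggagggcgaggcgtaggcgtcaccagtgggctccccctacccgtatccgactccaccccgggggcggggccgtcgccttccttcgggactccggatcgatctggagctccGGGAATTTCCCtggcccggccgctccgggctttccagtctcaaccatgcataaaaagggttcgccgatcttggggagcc
CXCL8: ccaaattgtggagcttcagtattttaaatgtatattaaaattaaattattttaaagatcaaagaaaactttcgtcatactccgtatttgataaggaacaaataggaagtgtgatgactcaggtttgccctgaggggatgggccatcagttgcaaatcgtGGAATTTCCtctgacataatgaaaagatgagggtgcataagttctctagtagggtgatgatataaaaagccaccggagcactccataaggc
CXCL5: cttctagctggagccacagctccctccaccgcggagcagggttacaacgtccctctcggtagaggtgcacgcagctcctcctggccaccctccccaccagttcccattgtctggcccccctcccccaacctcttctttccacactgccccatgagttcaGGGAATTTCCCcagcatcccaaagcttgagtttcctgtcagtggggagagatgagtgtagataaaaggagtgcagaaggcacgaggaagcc

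These letters belong to the kappaB family of sequences that NF-kappaB binds. On either strand, GGGAATTTCCC was in 5 of the 7 promoters and in 0.0769% of 35116 RefSeq promoters of the same length, and GGAATTTCC, which lies inside it, in 6 of the 7 and in 0.413% of all. Both runs were picked as the longest that these same promoters share. Their counts among the 7 thus follow from that choice, and setting them beside all promoters tests nothing. The run began 79 bases before the RefSeq start site in CXCL1 and CXCL3, 78 in CXCL2, 91 in CXCL5 and 90 in CXCL6, and the shorter run 91 bases before it in CXCL8. In CXCL3 the run lies within the gene position given above. The kappaB consensus was in 6 of the 7, CCL20 included and CXCL8 not, and in 9.96% of all. The AP-1 motif TGANTCA was in CXCL8 only (6.57% of all), 137 bases before the start, and TATAAA in CXCL8 and CCL20 (10.7% of all). The promoters of CXCL1 and CXCL3 were 81.4% identical, those of CXCL2 and CXCL3 73.4%, and those of CXCL5 and CXCL6 85.3%, while CXCL8 had between 43.9% and 47.9% identity with the other CXC genes. CXCL5 and CXCL6 thus carry the same letters as CXCL1 but differ from it in their level (next paragraphs).

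The expression of the targeted genes was read first, since it checks the labels. TRIM11 was at 12.6 FPKM in Control, 13.4 in TRIM11-KD1, 10.6 in TRIM11-KD2, 13.6 in KDM5C-KD1, 14.2 in KDM5C-KD2, 16.1 in DKD1 and 9.38 in DKD2. TRIM11 mRNA thus exceeded its Control level in both lines with TRIM11 sgRNA1, the library labelled TRIM11-KD1 and the one labelled DKD1. A guide can disrupt a protein without lowering its mRNA, and the protein is not measured in these tables. KDM5C was at 30.3 FPKM in Control, 29.8 and 28.4 in TRIM11-KD, 20.6 and 21.4 in KDM5C-KD, and 18.8 and 22.7 in DKD, so each of the 4 lines with a KDM5C guide was below each of the 3 without. The estimated depth, in units of 1000000 fragments, was between 13.8 (KDM5C-KD2) and 21.3 (TRIM11-KD1), read from the steps between low FPKM values, of which 65.3% to 70.6% were within 0.1 of a whole fragment, so fragment numbers below are approximate and their intervals cover counting error only. The median log2 ratio of all tested genes to Control was between -0.02 and 0.00 in the 6 knockdown libraries. Of 9 leukocyte markers, 3 were at 0 in all 7 libraries (MS4A1 and S100A8 among them), while CD14 was between 1.15 and 5.24 FPKM, CSF1R between 0.314 and 1.21, and PTPRC, the marker of all leukocytes, between 0.0778 and 0.979, and the other 3 were at most at 0.0553. VIM, a mesenchymal marker of MDA-MB-231, was between 1038 and 1309 FPKM. Of the markers that should be low in this line, PGR was at 0 and ESR1 at most at 0.0234 FPKM, but the epithelial genes CDH1 (0.615 to 1.98 FPKM), EPCAM and GATA3 were detected. EPCAM was at 4.03 FPKM in Control, 4.999 and 6.77 in TRIM11-KD, 10.3 and 12.1 in KDM5C-KD, and 12.3 and 12.02 in DKD, and GATA3 was between 4.41 and 8.92 FPKM, highest in DKD. The part of these genes in the chemokine values was not tested.

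In Control, CXCL8 had the highest level of the 9 genes and CXCL5 and CXCL6 the lowest. CXCL8 was at 32.8 FPKM, CXCL2 at 18.4, CCL5 at 7.04, CXCL1 at 4.82, CCL2 at 2.82, CXCL3 at 1.56 and CCL20 at 0.663. With 1 Control library there is no spread against which neighbours in this order could be compared.

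CXCL5 was listed at 0 in 6 libraries and at 0.0267 FPKM, about 1 fragment, in TRIM11-KD2. CXCL6 was at 0 in 6 libraries and at 0.0361 FPKM, again about 1 fragment, in DKD2. In the libraries at 0, 3 fragments would have given between 0.0630 and 0.0976 FPKM of CXCL5 and between 0.105 and 0.163 FPKM of CXCL6, so these genes were not detectable at this depth. CCL20 was at 0.663 FPKM in Control, 0.514 and 0.648 in TRIM11-KD, 0.419 and 0 in KDM5C-KD, and 0.475 and 0.327 in DKD. CCL20 rested on an estimated 8 fragments or fewer in each library, and 3 fragments would have given 0.344 FPKM in KDM5C-KD2, so its order across lines cannot be read beyond counting error.

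CXCL1, CXCL2, CXCL3 and CXCL8, the 4 neutrophil chemokines that were expressed, followed 1 order across the lines with few exceptions. CXCL1 was at 4.82 FPKM in Control, 7.51 in TRIM11-KD1, 3.85 in TRIM11-KD2, 1.56 in KDM5C-KD1, 0.0749 in KDM5C-KD2, 37.5 in DKD1 and 1.63 in DKD2. CXCL2 was at 18.4 FPKM in Control, 35.4 in TRIM11-KD1, 25.2 in TRIM11-KD2, 16.3 in KDM5C-KD1, 6.44 in KDM5C-KD2, 91.8 in DKD1 and 11.0 in DKD2. For both genes DKD1 was the highest library and KDM5C-KD2 the lowest, and the 2 lines of a double knockdown were on opposite sides of Control. CXCL3 was at 1.56 FPKM in Control, 3.82 in TRIM11-KD1, 1.89 in TRIM11-KD2, 1.53 in KDM5C-KD1, 0.152 in KDM5C-KD2, 7.38 in DKD1 and 1.10 in DKD2. CXCL8 was at 32.8 FPKM in Control, 54.4 in TRIM11-KD1, 42.0 in TRIM11-KD2, 18.0 in KDM5C-KD1, 2.65 in KDM5C-KD2, 110.1 in DKD1 and 14.4 in DKD2. The order of all 7 libraries was the same in CXCL2, CXCL3 and CXCL8 (DKD1, TRIM11-KD1, TRIM11-KD2, Control, KDM5C-KD1, DKD2, KDM5C-KD2), and CXCL1 differed from it in the places of Control, TRIM11-KD2, DKD2 and KDM5C-KD1. On the log2(FPKM + 1) scale the pairwise Pearson correlations of these 4 genes were between 0.93 and 0.99 over the 7 libraries. Of the 7 libraries, 3 share a KDM5C guide. CXCL2 and CXCL3 also share sequence: 5.34% of the 100-base stretches of CXCL2 transcripts were also in CXCL3, so some reads of this pair could be split between them.

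CCL2 and CCL5 had patterns of their own. CCL2 was at 2.82 FPKM in Control, 2.32 in TRIM11-KD1, 23.1 in TRIM11-KD2, 0.684 in KDM5C-KD1, 0 in KDM5C-KD2, 112 in DKD1 and 34.2 in DKD2. It was highest in both double knockdowns and lowest in both KDM5C-KD lines, and no library of these 2 groups overlapped. CCL5 was at 7.04 FPKM in Control, 12.7 in TRIM11-KD1, 8.88 in TRIM11-KD2, 4.64 in KDM5C-KD1, 5.80 in KDM5C-KD2, 3.59 in DKD1 and 20.3 in DKD2. CCL5 was thus highest in DKD2 and lowest in DKD1, the reverse of the CXC genes in these 2 lines. The correlation of CCL2 with the 4 CXC genes was between 0.62 and 0.68, and that of CCL5 between -0.32 and -0.11, over the same 7 libraries. Of the 100-base stretches of CCL5 transcripts, 6.97% were also in transcripts of other genes, so its level could include reads of those.

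**Figure D1:**
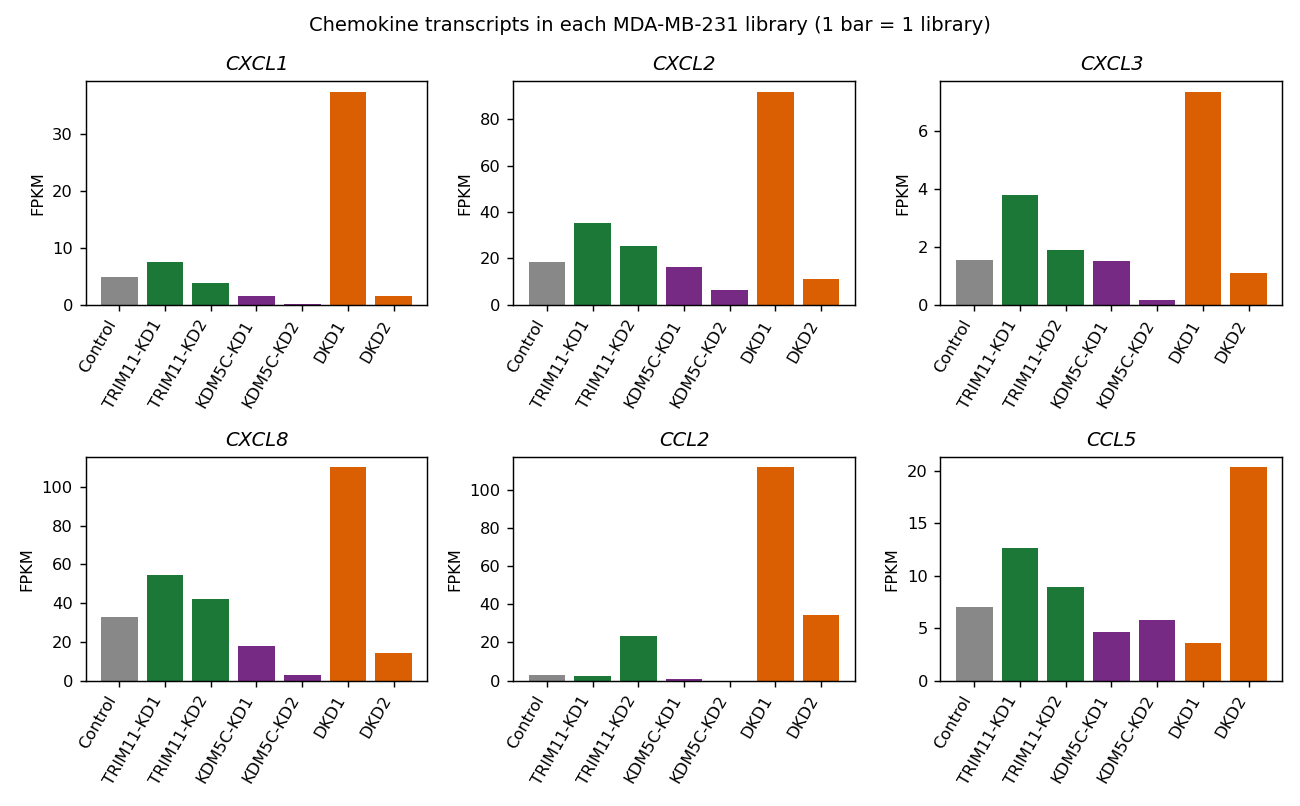
Expression of the 6 tested chemokine genes in FPKM (y axes, which start at 0 and differ between panels) in the 7 MDA-MB-231 libraries (x axes), 1 bar for each library, in grey for Control, green for TRIM11-KD, purple for KDM5C-KD and orange for DKD. DKD1 is the highest bar for all but CCL5, where DKD2 is highest at 20.3 FPKM.

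The comparison with Control asked which genes each knockdown moved in both of its lines. A gene was called when both lines were at least 1.5-fold above, or both at least 1.5-fold below, the Control library, and no p-value can be given with 1 Control. In KDM5C-KD, 3 of the 6 tested chemokine genes were lower (CXCL1, CXCL8 and CCL2) and none was higher, while 3.97% of all 12636 tested genes were called lower and 5.22% higher. The 6 were chosen with earlier results of these data known, so the shares of all genes give a scale and not a test. CXCL1 was 3.09-fold below Control in KDM5C-KD1. In KDM5C-KD2 it rested on about 1 fragment, 64.3-fold below Control with a 95% counting interval from 11.5-fold to 2541-fold. CXCL8 was 1.82-fold below Control in KDM5C-KD1 and 12.4-fold below in KDM5C-KD2. CCL2 was 4.12-fold below Control in KDM5C-KD1 and, against a floor of 3 fragments, at least 6.99-fold lower in KDM5C-KD2. The 4.12-fold rests on about 7 fragments in KDM5C-KD1 and about 29 in Control, and no interval was computed for it. The intervals given here cover the fragments of the knockdown library only and take Control as exact. Both lines had lower values than Control for all 6 genes, but in KDM5C-KD1 CXCL2 (ratio 0.885) and CXCL3 (ratio 0.980) were close to Control. CXCL3 in KDM5C-KD2, from about 2 fragments, was 10.3-fold below Control (counting interval 2.84-fold to 84.6-fold). CCL5 had ratios of 0.659 and 0.824. At a fold of 2, CXCL8 was no longer called. KDM5C-KD2 alone would give 5 genes lower, where 13.0% of all genes were lower by this rule, and KDM5C-KD1 alone 4, beside 6.14%. KDM5C-KD2 was also the shallowest library, with 0.722 of the estimated depth of Control, and the part of depth in these values was not tested beyond the intervals given.

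In DKD, CCL2 was the only 1 of the 6 called, against 5.71% of all tested genes called higher and 4.87% called lower. It was 39.6-fold above Control in DKD1 and 12.1-fold above in DKD2. The other 5 genes differed in direction between the lines. In DKD1 the 4 CXC genes were above Control, by 7.78-fold for CXCL1, 4.98-fold for CXCL2, 4.72-fold for CXCL3 and 3.36-fold for CXCL8. In DKD2 they were below Control, by 2.96-fold, 1.68-fold, 1.42-fold and 2.28-fold in the same order. CCL5 was 1.96-fold below Control in DKD1 and 2.89-fold above in DKD2. Without DKD1, 2 genes were higher (CCL2 and CCL5) and 3 lower (CXCL1, CXCL2 and CXCL8), beside 11.3% and 12.3% of all genes. Without DKD2, 5 were higher and 1 was lower, beside 9.50% and 8.68%. Among the 9 leukocyte markers the summed level was 2.24 FPKM in Control, 5.11 to 6.56 in DKD, 2.65 to 3.05 in TRIM11-KD and 2.18 to 2.93 in KDM5C-KD. CD14 made most of this, with 1.44 FPKM in Control, 5.24 in DKD1 and 4.53 in DKD2, while PTPRC was at 0.0781 and 0.223 FPKM in DKD, 0.235 in Control and 0.979 in KDM5C-KD2, its highest value. The part of these markers in the chemokine values was not tested.

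In TRIM11-KD none of the 6 genes was called, where 3.25% of all tested genes were called higher and 2.58% lower. CXCL2, CXCL3, CXCL8 and CCL5 were above Control in both lines, by 1.66-fold to 2.45-fold in the library labelled TRIM11-KD1 and by 1.21-fold to 1.37-fold in TRIM11-KD2, which is under the 1.5-fold limit. CXCL1 had ratios of 1.56 and 0.798. CCL2 had ratios of 0.822 and 8.19, so that the lines differed 9.96-fold from each other. Alone, TRIM11-KD1 would give 5 genes higher, beside 5.52% of all genes, and TRIM11-KD2 would give 1 (CCL2), beside 8.71%.

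**Figure D2:**
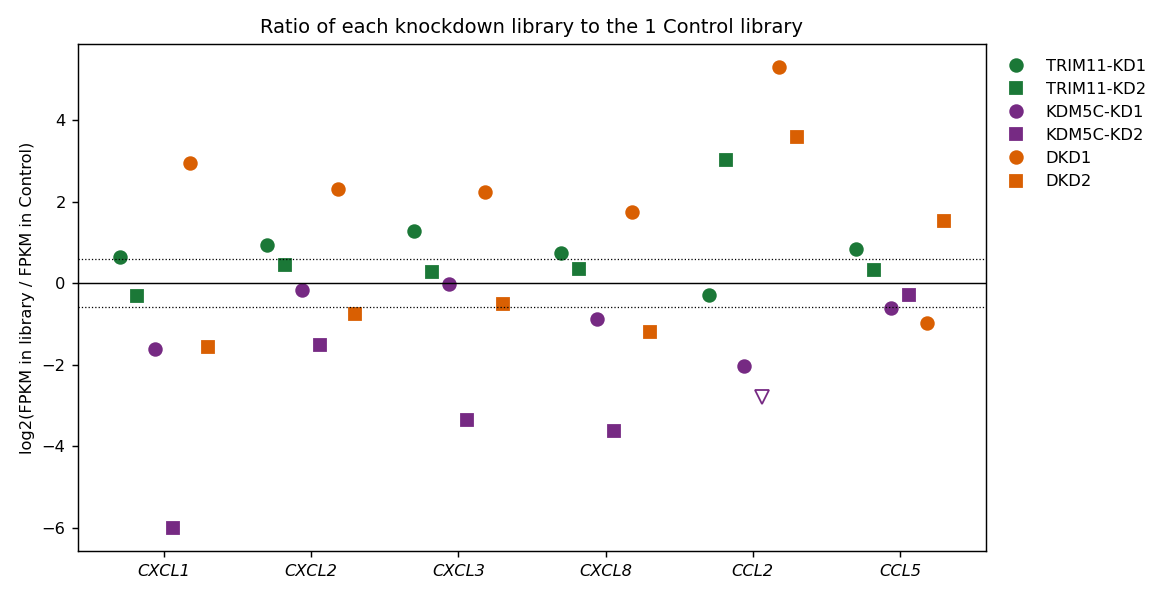
Log2 of the FPKM of each knockdown library over that of the 1 Control library (y axis) for the 6 tested chemokine genes (x axis), with circles for line 1 and squares for line 2. Dotted lines are at 1.5-fold, and the open triangle puts CCL2 in KDM5C-KD2, where it was at 0, at the level of 3 fragments, an upper limit. The orange symbols of DKD1 and DKD2 lie on opposite sides of 0 for all genes but CCL2.

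The double knockdowns were set beside the single knockdowns that share a guide, as pairs of libraries with no replicate. DKD1 against TRIM11-KD1, with the same TRIM11 guide, had 4.99 times as much CXCL1, 2.60 times as much CXCL2, 2.02 times as much CXCL8 and 48.2 times as much CCL2. DKD2 against TRIM11-KD2 had less of the CXC genes, 0.423 of CXCL1, 0.436 of CXCL2 and 0.342 of CXCL8, and 1.48 times as much CCL2. Adding the KDM5C guide thus went with opposite differences of the CXC genes under the 2 TRIM11 guides. Against KDM5C-KD2, which has their KDM5C guide, both double knockdowns had more of the 4 CXC genes, by 14.3-fold (DKD1) and 1.71-fold (DKD2) for CXCL2 and by 41.5-fold and 5.41-fold for CXCL8. CCL2 was at least 277-fold and at least 84.7-fold higher in DKD1 and DKD2 than in KDM5C-KD2, with KDM5C-KD2 at the floor of 3 fragments. Against KDM5C-KD1, with the other KDM5C guide, DKD2 was close for CXCL1 (ratio 1.04) and below for CXCL2 (0.674), CXCL3 (0.721) and CXCL8 (0.800).

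Differences between the knockdowns, each with 2 lines, were tested with limma on log2(FPKM + 1) over the 6 knockdown libraries. Between KDM5C-KD and TRIM11-KD, all 6 tested chemokine genes were lower in KDM5C-KD with no overlap of the libraries, where 21.0% of all tested genes were lower without overlap and 22.5% higher. As the 6 were chosen with earlier results of these data known, this contrast with all genes is no test. The difference was -2.55 (standard error 1.07) for CXCL8, -1.95 (1.20) for CXCL1, -1.44 (0.93) for CXCL2, -1.13 (0.71) for CXCL3, -2.78 (0.98) for CCL2 and -0.91 (0.66) for CCL5. No gene of the table passed at an adjusted p of 0.05 (limma with Benjamini-Hochberg adjustment over all 12636 genes), and the lowest value of the 6 chemokine genes was 0.494, for CCL2. At an unadjusted p under 0.05 in limma, 5.58% of all genes were higher and 4.24% lower, and CCL2 was the only chemokine gene among them. With the replicate number as a block, all but CCL5 were under 0.05 unadjusted, with adjusted p of at least 0.277 in limma. With that block 857 of all 12636 genes were lower and 1118 higher at an unadjusted limma p under 0.05. The number marks a KDM5C guide in KDM5C-KD but a TRIM11 guide in TRIM11-KD, so the block pairs lines that share only a number. Without KDM5C-KD2 the differences were -1.36 for CXCL8, -1.33 for CXCL1, -0.83 for CXCL2 and -0.56 for CXCL3, and that of CCL2 was -4.21 without TRIM11-KD1 and -1.35 without TRIM11-KD2. The 4 CXC genes vary together, so they are not 4 separate counts.

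Between KDM5C-KD and DKD, CCL2 had the largest difference of the 6, -5.60 (standard error 0.98), with an unadjusted p of 0.00119 and an adjusted p of 0.379 in limma. CXCL1 differed by -2.60 (1.20), CXCL8 by -2.31 (1.07), CXCL2 by -1.56 (0.93), CXCL3 by -1.30 (0.71) and CCL5 by -0.68 (0.66), with adjusted p of up to 0.714. Of all genes 5.80% were higher and 5.86% lower at an unadjusted p under 0.05, CCL2 alone among the 6. With the replicate number as a block, CXCL1, CXCL2, CXCL3 and CXCL8 were also under 0.05 unadjusted, and the lowest adjusted p of the 6 was 0.237 in limma. With that block 1024 of all 12636 genes were higher and 1139 lower at an unadjusted limma p under 0.05. The number marks a KDM5C guide in KDM5C-KD but a TRIM11 guide in DKD, and both DKD lines carry KDM5C sgRNA2. The CXC values rest on both DKD lines: without DKD1 they were -0.66 for CXCL1, -0.88 for CXCL8, -0.08 for CXCL2 and -0.30 for CXCL3, and without DKD2 -4.54, -3.74, -3.03 and -2.29. CXCL1 and CCL2 were lower in both KDM5C-KD libraries than in both DKD libraries, beside 21.3% of all tested genes that were lower and 22.0% higher without overlap. For CXCL2, CXCL3 and CXCL8 the groups overlapped, because DKD2 was below KDM5C-KD1. Between TRIM11-KD and DKD, only CCL2 did not overlap (lower in TRIM11-KD, as were 21.7% of all genes, with 19.3% higher), with a difference of -2.82 (0.98; adjusted p = 0.702). The differences of the other 5 genes were between -0.65 and 0.24, within 1 standard error of 0. At an unadjusted p under 0.05, 3.27% of all genes were higher and 3.76% lower in TRIM11-KD, and CCL2 was the only chemokine gene among them. No gene of the table had an adjusted p under 0.05 in either comparison, while 1473 and 888 were under 0.05 unadjusted.

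Over all 7 libraries a fit with 1 term for each guide asked whether a gene differed between lines with and without a KDM5C guide, and with and without a TRIM11 guide. For the TRIM11 guide, the 6 genes were higher where it was present, by 3.85 (standard error 1.06) for CCL2 and by 0.62 (0.47, CCL5) to 1.62 (0.96, CXCL1) for the other 5. Without DKD1 the values were 0.40 for CXCL1, 0.37 for CXCL2, 0.42 for CXCL3 and 0.71 for CXCL8, and without DKD2 that of CCL5 was 0.05. CCL2 had an unadjusted p of 0.00784, where 5.19% of all genes were higher and 5.48% lower under 0.05, and an adjusted p of 0.448 in limma. In libraries without a TRIM11 guide CCL2 had a lowest value of 0, a median of 0.684 and a highest of 2.82 FPKM, and with it 2.32, 28.6 and 112 FPKM, so that the groups overlapped through TRIM11-KD1. No chemokine gene separated the groups, where 4.20% of all genes were higher and 4.55% lower without overlap. The two-sided exact permutation test, 4 libraries against 3, gave p = 0.114 for CCL2, 0.171 for CXCL8 and 0.229 for CXCL1, CXCL2 and CXCL3, and p = 0.286 for CCL5. The smallest p this design allows is 0.0571.

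For the KDM5C guide the differences were smaller than their standard errors for CXCL1 (-0.34, 0.96), CXCL2 (-0.24, 0.68), CXCL3 (-0.13, 0.52) and CCL5 (-0.29, 0.47). CXCL8 differed by -0.95 (0.83) and CCL2 by 1.07 (1.06), with adjusted p of 0.706 and 0.745 in limma. The exact permutation p was between 0.4 and 0.914. No chemokine gene separated the groups, beside 5.64% of all genes higher and 5.07% lower without overlap. With the KDM5C guide present CXCL8 had a lowest level of 2.65, a median of 16.2 and a highest of 110.1 FPKM, and without it 32.8, 42.0 and 54.4 FPKM, so that 3 of the 4 libraries with the guide were below all 3 without it and DKD1 was above them. The same held for CXCL1, CXCL2 and CXCL3. The margin was small for CXCL3 (1.53 FPKM in KDM5C-KD1, 1.56 in Control) and CXCL2 (16.3 in KDM5C-KD1, 18.4 in Control). DKD1 was set apart here after its values were seen, and the share of all genes with such a pattern was not counted. For KDM5C itself the difference was -0.49 (standard error 0.10) with an adjusted p of 0.345 in limma. Of all genes 0.00791%, a single gene, had an adjusted p under 0.05, and 5.87% were higher and 5.18% lower at an unadjusted p under 0.05, none of the 6 chemokine genes among them.

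The difference of the KDM5C guide effect with and without the TRIM11 guide was tested as an interaction, added after the data were seen. It was 4.37 (standard error 1.55) for CCL2, with an unadjusted limma p of 0.0299 and an adjusted p of 0.879. At an unadjusted limma p under 0.05, 383 of all 12636 genes were higher and 311 lower, CCL2 alone among the 6. For the 4 CXC genes the interaction was between 0.75 and 2.46 with standard errors between 1.12 and 1.89, and for CCL5 0.15 (1.05), none of which passed.

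**Figure D3:**
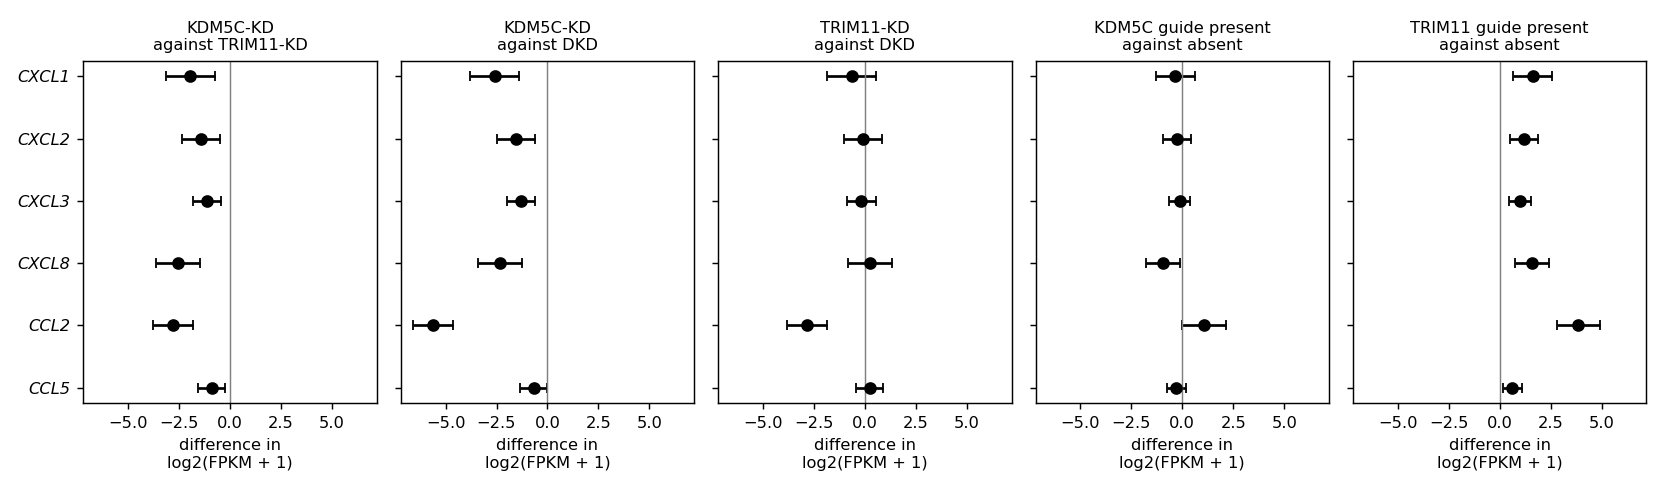
Differences in log2(FPKM + 1) (x axes) of the 6 tested chemokine genes (y axis) in 5 comparisons, with points for the limma estimate and bars for 1 standard error. All 6 points are below 0 in KDM5C-KD against TRIM11-KD and all 6 above 0 for the TRIM11 guide, and no adjusted p was under 0.05.

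The other chemokine ligands were mostly silent in these cells. Of 39 further ligand genes, 34 had an entry of their own, 14 of these were at 0 in all 7 libraries, and 6 were tested. Called higher were 3 of the 6 in TRIM11-KD (3.25% of all genes), 2 in KDM5C-KD (5.22%) and 4 in DKD (5.71%). In each, 1 was called lower (2.58%, 3.97% and 4.87% of all genes in the same order). CX3CL1, a membrane-bound chemokine, was at 0.951 FPKM in Control, 2.94 and 2.71 in TRIM11-KD, 1.81 and 0.638 in KDM5C-KD, and 4.09 and 3.98 in DKD. CCL28, a mucosal chemokine, was at 0.949 FPKM in Control, 1.83 and 2.36 in KDM5C-KD, and 2.86 and 2.80 in DKD. CXCL16 was at 2.40 FPKM in Control, 4.22 and 7.24 in TRIM11-KD, 2.77 and 1.88 in KDM5C-KD, and 3.62 and 4.72 in DKD. CCL26, an eosinophil chemokine, was at 4.84 FPKM in Control and at 1.32 and 1.29 in DKD. CXCL10, an interferon-induced T cell chemokine at 1.10 FPKM in Control, was called lower in TRIM11-KD and KDM5C-KD. CXCL14 is counted as higher in each knockdown, but it was listed at 0 in Control, so that any value above 0 met the rule, and it was at 0.0268 to 0.0410 FPKM in 3 of the knockdown libraries. Its mean of 0.536 FPKM reached the level for testing only through DKD, at 0.763 and 2.44 FPKM. Every other library was at most at 0.447 FPKM. Without CXCL14 the counts of higher genes were 2, 1 and 3. CXCL10 and CXCL14 are named after their values were seen.

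Of 23 chemokine receptor genes 4 were tested. Called higher were 2 in TRIM11-KD (3.25% of all genes) and 2 in DKD (5.71%). Called lower were 2 in KDM5C-KD (3.97% of all genes) and 1 in DKD (4.87%). CXCR2, the main receptor of the CXCL1 group, was at 0 in all 7 libraries and CXCR1 in all but Control (0.0233 FPKM). CXCR4, the receptor of CXCL12, was at 34.6 FPKM in Control, 27.2 and 7.21 in TRIM11-KD, 11.3 and 13.9 in KDM5C-KD, and 12.5 and 0.751 in DKD, and was called lower in KDM5C-KD and DKD. ACKR3, a scavenging receptor of CXCL12, was at 1.99 FPKM in Control and was called higher in TRIM11-KD (3.07 and 3.63) and DKD (5.15 and 4.64) and lower in KDM5C-KD (1.03 and 0.650). Its calls had the direction of CCL2 in KDM5C-KD and DKD. CCR10, the receptor of CCL28, was called higher in TRIM11-KD and DKD from 0.560 FPKM in Control, with values between 1.06 and 1.64. Its highest value was in KDM5C-KD1 (1.71 FPKM), with 0.626 in KDM5C-KD2.

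Genes that act on chemokine transcription and mRNA decay were counted by the same 1.5-fold rule, which in 1 direction called between 2.58% and 5.71% of all tested genes. Of 14 tested NF-kappaB subunits and inhibitors, 1 was called, IKBKG, a kinase subunit upstream of NF-kappaB, which was higher in KDM5C-KD (28.9 FPKM in Control, 45.2 and 44.7 in KDM5C-KD). The median log2 ratio of this list to Control was 0.16 in TRIM11-KD, -0.26 in KDM5C-KD and 0.16 in DKD, where that of all tested genes was between -0.01 and 0.00. RELB, NFKB1, NFKB2, NFKBIA and TNIP1 were highest in DKD1 and lowest in KDM5C-KD2, and the other tested genes of the list were not. These are named after their values were seen. NFKBIA was at 59.6 FPKM in Control, 105 in DKD1 and 36.8 in KDM5C-KD2. At an unadjusted limma p under 0.05, 4 of the 14 were lower in KDM5C-KD than in TRIM11-KD and 1 was higher. Of all genes, 4.24% were lower and 5.58% higher. The part of this list in the chemokine values was not tested. Of 16 tested genes of interleukin-1 and TNF signalling, 1 was called, IL1B, higher in TRIM11-KD (7.29 FPKM in Control, 13.8 and 11.6 in TRIM11-KD). IL1A, which codes for interleukin-1 alpha, was at 1.07 FPKM in Control, 2.14 and 0.808 in TRIM11-KD, 0.779 and 0.213 in KDM5C-KD, and 5.60 and 0.349 in DKD, and like the CXC genes had its highest value in DKD1 and its lowest in KDM5C-KD2.

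Of 11 tested AP-1 and C/EBP factors, CEBPD was called higher in TRIM11-KD (10.4 FPKM in Control, 23.2 and 28.2) and in DKD (29.9 and 20.4), and ATF3, a stress-induced factor, higher in DKD (31.8 in Control, 58.9 and 63.7). In KDM5C-KD1 CEBPD was at 26.96 FPKM, among its TRIM11-KD and DKD values, and in KDM5C-KD2 at 9.19. None of 8 tested mRNA decay factors was called. In the TBK1 and IRF route, 12 genes were tested, and IFIH1, an RNA sensor, was higher in TRIM11-KD (2.45 FPKM in Control, 5.30 and 5.54), and IKBKE, a kinase of this route, in DKD (4.98 in Control, 12.96 and 8.30). In the limma comparisons between knockdowns no gene of these lists had an adjusted p under 0.05.

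**Figure D4:**
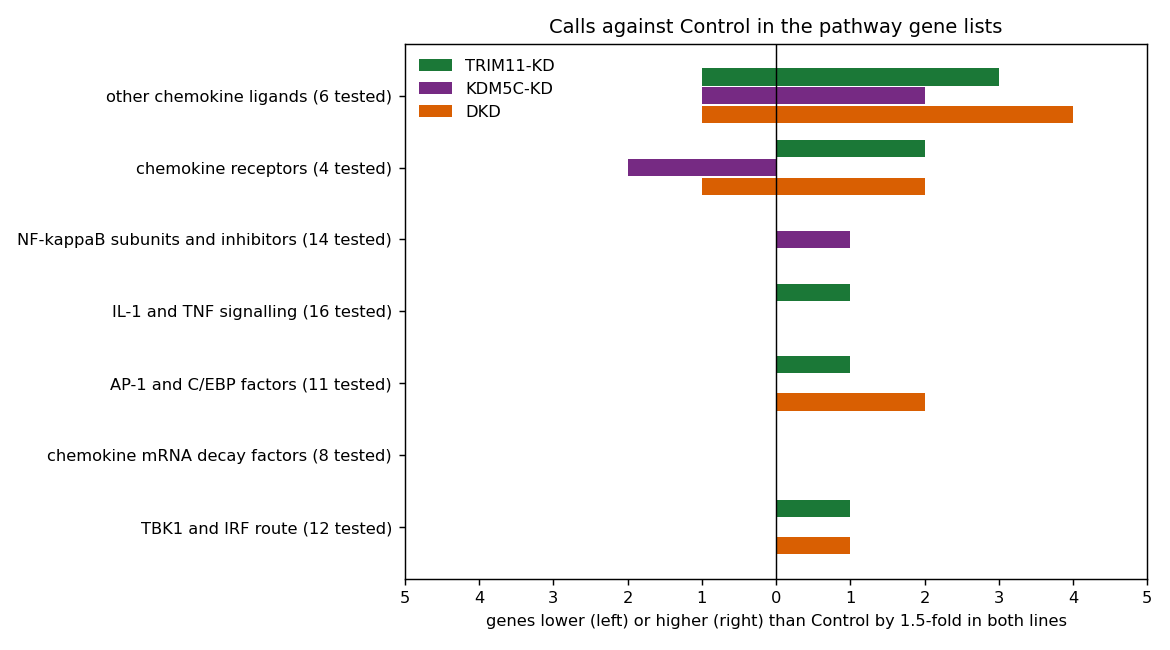
Number of genes called lower (left of 0) or higher (right of 0) than Control by 1.5-fold in both lines (x axis) in 7 pathway gene lists (y axis, with the number of tested genes), in green for TRIM11-KD, purple for KDM5C-KD and orange for DKD. Calls are found mainly among other chemokine ligands and receptors, and none of the 8 mRNA decay factors is called. In 1 direction the rule called 2.58% to 5.71% of all tested genes. Some called ligands and receptors were low in Control (CX3CL1 0.951, CCL28 0.949, CCR10 0.560 FPKM), though CXCR4 was at 34.6. The rule has no pseudocount: with 1 added, genes higher in TRIM11-KD fell from 411 to 128. The lists thus differ in level, and their counts are not comparable. The ligand counts include CXCL14, listed at 0 in Control and tested only through its DKD values.

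The genes most like the chemokine genes in their pattern were looked for among 413 genes with a mean of at least 5 FPKM and a standard deviation of at least 0.5 in log2(FPKM + 1), by Pearson correlation over the 7 libraries. For the mean of CXCL1, CXCL2, CXCL3 and CXCL8 the closest was CSF2 (r = 0.977), which codes for the growth factor GM-CSF. It was at 27.2 FPKM in Control, 25.6 and 19.4 in TRIM11-KD, 15.9 and 4.46 in KDM5C-KD, and 79.7 and 11.0 in DKD. Next were the entry shared by C15orf48 and MIR147B (r = 0.963), the entry shared by SAA2, SAA2-SAA4 and SAA4 (serum amyloid A, r = 0.946), IL1B (r = 0.943) and GFPT2, an enzyme of hexosamine synthesis (r = 0.933). For CCL2 they were SEMA6B (r = 0.970), HS3ST1, a heparan sulfate sulfotransferase (r = 0.942), and AFAP1L2 (r = 0.911). For CCL20, whose own pattern rests on 8 fragments or fewer in each library and so cannot be read beyond counting error, they were RGMB (r = 0.972), MFAP2 (r = 0.971) and PTX3, a secreted pattern recognition protein (r = 0.932), and all 3 had their lowest level in KDM5C-KD2, with RGMB at 11.8 FPKM there and 42.4 in Control. These correlations are over 7 libraries of which 3 share a KDM5C guide, and the genes were picked as the closest of 413.

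In the mouse tumors, which hold many cell types, 3 of the 7 chemokine genes of the same symbol were tested, Cxcl1, Ccl2 and Ccl5. Trim11 itself was at 37.1 ± 1.84 FPKM (SD, n = 3) in Trim11+/+ and 23.2 ± 0.660 (SD, n = 3) in Trim11+/- tumors. Ccl2 was at 1.93, 3.37 and 4.20 FPKM in the 3 Trim11+/+ tumors (24, 39 and 48 reads) and at 1.74, 0.899 and 0.736 in the 3 Trim11+/- tumors (22, 9 and 9 reads). The genotypes did not overlap, with the lower values in Trim11+/-, as in 6.78% of all 17328 tested genes (6.60% were higher without overlap), and the means were 3.17 ± 1.15 and 1.12 ± 0.538 FPKM (SD, n = 3 each). The difference was -0.96 (standard error 0.27) on the log2(FPKM + 1) scale, with an unadjusted p of 0.0110 and an adjusted p of 0.634 in limma. The exact permutation test gave p = 0.1, the smallest that 3 tumors against 3 allow.

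Ccl5 was at 1.53, 3.79 and 2.91 FPKM in Trim11+/+ tumors and 1.78, 1.54 and 0.969 in Trim11+/- tumors, with overlap and a difference of -0.59 (0.27; adjusted p = 0.715). Cxcl1 was at 3.42, 4.35 and 3.88 FPKM in Trim11+/+ and 3.26, 2.55 and 3.67 in Trim11+/- tumors, a difference of -0.24 (0.15; adjusted p = 0.790). The other 4 genes were below the mean of 0.5 FPKM: Cxcl2 had 1 to 6 reads per tumor, Cxcl5 had 3 to 11, Ccl20 had 0 to 7, and Cxcl3 had 1 read in 1 tumor. Of all tested genes, 3.65% were higher and 3.29% lower in Trim11+/- tumors at an unadjusted limma p under 0.05, 1.74% and 1.87% when a fold of 1.5 was also required, and 0.00577%, a single gene, had an adjusted p under 0.05. Ccl2 was the only 1 of the 3 chemokine genes under 0.05 unadjusted, and met the fold as well.

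Ccl2 and Ccl5 are made by macrophages, fibroblasts, T cells and other cells of a tumor, and in bulk tissue fewer cells of a type and less RNA per cell cannot be told apart. All 7 macrophage markers had a lower mean in Trim11+/- tumors, their summed level being 248 to 319 FPKM in Trim11+/+ and 223 to 253 in Trim11+/- tumors. All 6 T cell markers also had a lower mean, with sums of 1.83 to 4.81 and 0.863 to 2.72 FPKM, as did all 5 fibroblast markers (84.2 to 177 and 69.5 to 138 FPKM) and 4 of 6 neutrophil markers (18.6 to 37.3 and 18.3 to 20.95 FPKM; Ly6g was at 0 in all tumors). The part of these cells in the chemokine values was not tested. Of the 5 epithelial markers 3 also had a lower mean, and the 5 summed to between 1398 and 1704 FPKM in Trim11+/+ and between 1320 and 1832 in Trim11+/- tumors. No tested macrophage, T cell, fibroblast or epithelial marker was under 0.05 unadjusted in limma. Of 3 tested neutrophil markers, 1 was, lower in Trim11+/-. Only 2 T cell markers reached 0.5 FPKM. The share of all genes with a lower mean was not counted, and the median difference of all tested genes was -0.00475.

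**Figure D5:**
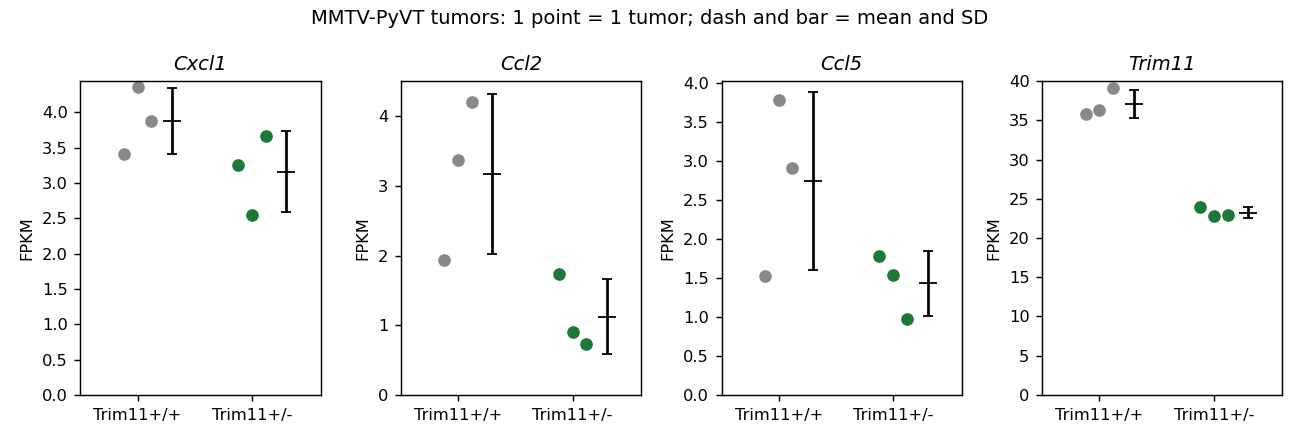
FPKM (y axes, which start at 0 and differ between panels) of the 3 tested chemokine genes and of Trim11 in MMTV-PyVT tumors of both genotypes (x axes), 1 point for each tumor, with a dash and bar for the mean and SD of 3 tumors. The genotypes do not overlap for Ccl2 and Trim11 and overlap for Cxcl1 and Ccl5.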

How the data were processed

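RNA-Seq libraries of 7 MDA-MB-231 lines and 6 mouse tumors were analysed. Per the study's methods, poly(A) RNA was made into paired-end libraries by a kit that does not mark strand, and the authors trimmed reads with Cutadapt after FastQC, aligned them with HISAT2 to hg19 or mm10, and deposited FPKM values from Cufflinks, 1 table for each species. The submitters' processing notes also list Bowtie 0.12.2. Reads were not reprocessed, and antisense or overlapping genes cannot be told apart.

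Of rows with the same symbol the one with the highest mean was kept, and 25 human symbols that had turned into dates were left out. Genes with a mean of at least 0.5 FPKM were tested (12636 human, 17328 mouse). Comparisons with Control used a fold of 1.5 in both lines without a pseudocount. Others used log2(FPKM + 1) and limma 3.58.1 (R 4.3.3, lmFit, eBayes with a trend, checked on simulated data) with Benjamini-Hochberg adjustment over all tested genes. Such differences understate changes of low genes. Single genes were also compared by exact two-sided permutation tests in scipy 1.17.1. Human fragment numbers were estimated from the steps between low FPKM values with 200 bases taken off each length. For the tumors 98.6% to 98.7% of low values came out within 0.02 of whole reads, with totals of 8793221 to 11117171 reads. Other tools were Python 3.11.15, numpy 2.4.6, pandas 2.3.3 and matplotlib 3.10.9.

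The chemokine genes and the lists were chosen with earlier results of these data known. Besides the members, the named genes were the targeted genes, IL1A, up to 3 genes of a list with a mean of at least 1 FPKM and the largest log2 ratio among those called, and the closest genes in pattern. The alternatives were a pseudocount of 0.1 or 1, a mean of at least 1 FPKM or no filter, median-ratio scaling, a fold of 2, both lines averaged, eBayes without a trend, only the groups compared, the replicate number as a block, other guide models, and each library left out. An interaction term was added after the data were seen.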

Additional observations from a re-analysis of the deposited data

Results flagged for a closer look

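CCL2 was below Control in both KDM5C-KD libraries (0.684 and 0 against 2.82 FPKM) and higher in both DKD libraries (112 and 34.2 FPKM) than in both TRIM11-KD libraries (2.32 and 23.1 FPKM), so that the lines with a KDM5C guide were on opposite sides of their reference without and with a TRIM11 guide. The interaction was 4.37 on the log2(FPKM + 1) scale, with a standard error of 1.55, an unadjusted p of 0.0299 and an adjusted p of 0.879 in limma, so the difference did not pass the test. Of all 12636 tested genes, 383 were higher and 311 lower at an unadjusted p under 0.05 for the interaction in limma. How many genes lie on opposite sides in this way was not counted. TRIM11 mRNA exceeded its Control level in the library labelled TRIM11-KD1 and the one labelled DKD1, on which the difference of CCL2 in part rests.

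DKD1 stood apart from the other 3 libraries with a KDM5C guide in FPKM by Dixon's test, for CXCL1 (37.5 FPKM), CXCL2 (91.8 FPKM) and CXCL8 (110.1 FPKM), and for CXCL1 also among the 4 libraries with a TRIM11 guide. DKD2 stood apart for CCL5 (20.3 FPKM) among the libraries with a KDM5C guide. On the log2(FPKM + 1) scale of the tests none of the 12 groups of values had such a library. Chance flags about 1 in 20 groups, and the CXC genes vary together.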

How the results depend on the processing

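Of 33 values of single chemokine genes in the tests between groups, 438 alternatives gave 418 with the same direction and 20 with the other, all from leaving out 1 library, and no alternative brought a value to an adjusted p under 0.05. Other filters, eBayes without a trend, only the groups compared and the replicate block leave a difference as it is. So does leaving out a library of a group not compared. The direction of these alternatives was fixed in advance, so the count of 418 is no measure of stability. Leaving out libraries in turn gave differences between -1.78 and 0.43 for CCL5 in KDM5C-KD against DKD. In TRIM11-KD against DKD it gave -2.58 to 1.29 for CXCL1, -1.59 to 1.36 for CXCL2, -1.17 to 0.83 for CXCL3, -1.19 to 1.67 for CXCL8 and -0.88 to 1.34 for CCL5. For the KDM5C guide it gave -1.55 to 0.65 for CXCL1, -1.07 to 0.41 for CXCL2, -0.71 to 0.29 for CXCL3, -0.0852 (without TRIM11-KD1) to 2.82 for CCL2 and -0.86 to 0.25 for CCL5. Each library except KDM5C-KD1 turned at least 1 of these when left out. Without DKD1 the difference between TRIM11-KD and DKD was 1.29 for CXCL1, 1.36 for CXCL2 and 0.83 for CXCL3.

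The number of chemokine genes called against Control was 0 in TRIM11-KD (4 with the mean of both lines, 1 to 5 with either line left out), 3 in KDM5C-KD (5 with the mean, 4 to 5) and 1 in DKD (6 with the mean, 5 to 6), since 1 line then decides a call. Pseudocounts, filters, scaling and a fold of 2 left these numbers within 1.5 times. Over all genes, the calls against Control were between 69 (fold of 2) and 1831 (no filter) in 1 direction, where those reported are 326 to 722.

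The number of genes with an adjusted p under 0.05 was 0 in KDM5C-KD against DKD (0 to 17 with a library left out), 0 in TRIM11-KD against DKD (1 with a pseudocount of 0.1 or without a filter, 2 with eBayes without a trend, 0 to 7) and 0 in KDM5C-KD against TRIM11-KD (2, 1 and 2 with the same changes, 1 with only the groups compared, 1 to 10). For the KDM5C guide it was 1 (0 with a pseudocount of 0.1 or a mean of at least 1 FPKM, 3 with the interaction in the model, 2 for the interaction itself, 0 to 1), and for the TRIM11 guide 0 (2 with the interaction in the model, 0 to 1). In tumors 625 genes met the fold and p rule (970 without a filter, 584 to 810). The causes of these changes were not tested.

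With the replicate number as a block, 0 genes passed in each of the 3 comparisons of knockdowns and 573 met the rule in tumors, and no chemokine gene reached an adjusted p under 0.05 with the block. Unadjusted, 5 of the 6 were under 0.05 in KDM5C-KD against DKD and in KDM5C-KD against TRIM11-KD with the block and 1 without it. Counts at an unadjusted p under 0.05 were 2163, 1538 and 1975 with the block and 1473, 888 and 1241 without it (KDM5C-KD against DKD, TRIM11-KD against DKD, KDM5C-KD against TRIM11-KD). The deviations of same-numbered libraries from their group means correlated at 0.09 (TRIM11-KD with KDM5C-KD), 0.37 (TRIM11-KD with DKD) and 0.27 (KDM5C-KD with DKD). In TRIM11-KD and DKD the number marks the TRIM11 guide that both lines carry, while in KDM5C-KD it marks a KDM5C guide, so that those libraries share only a number with the others. The low level of CXCL1, CXCL3 and CCL2 in KDM5C-KD2, at 0 to 2 fragments, limits their ratios, as does that of CCL2 in KDM5C-KD1, at about 7.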
